A study of Homo sapiens with 9 samples.

Results

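The genes described here are the receptor-regulated SMAD transcription factors SMAD1, SMAD2, SMAD3, SMAD5 and SMAD9, the common-mediator SMAD4, and the SMAD ubiquitin ligases SMURF1 and SMURF2. They were taken by name from the count files, where 8 of 8 were found among 26364 listed genes, and all 8 had enough counts to be tested among 13704 genes. The cells were MDA-MB-231, a human triple-negative breast cancer line of mesenchymal type. shGLO1#1 and shGLO1#2 cells stably expressed a short hairpin RNA against GLO1, the enzyme that begins the detoxification of methylglyoxal (MG), and shNT cells stably expressed a control hairpin. Each of the 3 conditions was a single clone with 3 sequenced libraries, so a test measures the spread between libraries of a clone and not between independently made lines. The study asked which transcripts differ under MG stress, and it followed SMAD signaling in the same cells. Both GLO1-depleted clones were compared with the same shNT libraries.

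SMAD proteins carry signals of the TGF-β family from membrane receptors to the nucleus. SMAD1, SMAD5 and SMAD9 are phosphorylated by bone morphogenetic protein (BMP) type I receptors, SMAD2 and SMAD3 by TGF-β and activin type I receptors, and either kind joins SMAD4 before it acts on target genes. SMURF1 and SMURF2 are HECT-type ubiquitin ligases that mark SMADs and, together with SMAD7, the receptors for degradation. MAP kinases such as ERK phosphorylate the linker of receptor-regulated SMADs, which creates docking sites for SMURFs. None of these modifications is read by RNA sequencing, and the values here are mRNA levels only.

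Every library held between 15314238 and 18495576 counts assigned to genes, and the 8 genes together took 0.0820% to 0.115% of them. GLO1 averaged 65.3 ± 0.956 CPM (counts scaled to a common, TMM-adjusted library size) in shGLO1#1, 14.7 ± 0.759 CPM in shGLO1#2 and 317 ± 5.63 CPM in shNT (SD, n = 3 each), so that each library matched its label. Mesenchymal markers were high in all 9 libraries, with VIM between 3022 and 4380 CPM, and the estrogen and progesterone receptor genes ESR1 and PGR did not exceed 0.432 CPM. ERBB2, listed among the luminal genes, was present at 65.6 to 86.2 CPM. The summed leukocyte markers reached 1.25 to 2.11 CPM in shGLO1#1, 2.34 to 3.60 CPM in shGLO1#2 and 6.65 to 9.67 CPM in shNT, led by PTPRC with means of 1.21, 2.57 and 8.37 CPM in that order. CD14 did not follow this order, with means of 0.346 CPM in shGLO1#1, 0.525 CPM in shGLO1#2 and 0.239 CPM in shNT, and CD3E did not exceed 0.0652 CPM in any library. The part of these differences in the results below was not tested. In bulk RNA, fewer cells expressing a gene and less RNA per cell cannot be told apart.

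The SMAD genes did not move as one group. In shGLO1#1, SMAD1, SMAD5, SMAD3, SMURF1 and SMURF2 mRNA was higher and SMAD2 mRNA lower than in shNT. In shGLO1#2, SMAD5 and SMAD3 were higher and SMAD2, SMAD4 and SMURF1 were lower than in shNT. SMURF1 therefore moved in opposite directions in the 2 clones. A gene passed the test at an adjusted p under 0.05 (edgeR quasi-likelihood, Benjamini-Hochberg over all 13704 genes). By this rule 5 of the 8 genes were higher and 1 lower in shGLO1#1, in a comparison where 45.7% of all genes were called, 22.6% higher and 23.1% lower. In shGLO1#2 against shNT, 2 were higher and 3 lower, where 38.1% of all genes were called, 18.3% higher and 19.8% lower. With calls this frequent, the number of members called is not in itself a result about these genes. Libraries of the 2 conditions did not overlap for 5 of the 8 genes in shGLO1#1 against shNT, where 55.9% of all genes did not, and for 6 of the 8 in shGLO1#2 against shNT, where 47.3% did not. None of the 8 genes also passed a change of 1 on the log2 scale, which 8.73% of all genes did in shGLO1#1 (5.98% higher and 2.75% lower) and 7.68% in shGLO1#2 (5.09% higher and 2.59% lower). The median log2 fold change of the 8 genes was 0.31 in shGLO1#1 and 0.17 in shGLO1#2, while that of all genes tested was 0.00 in each.

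**Figure D1:**
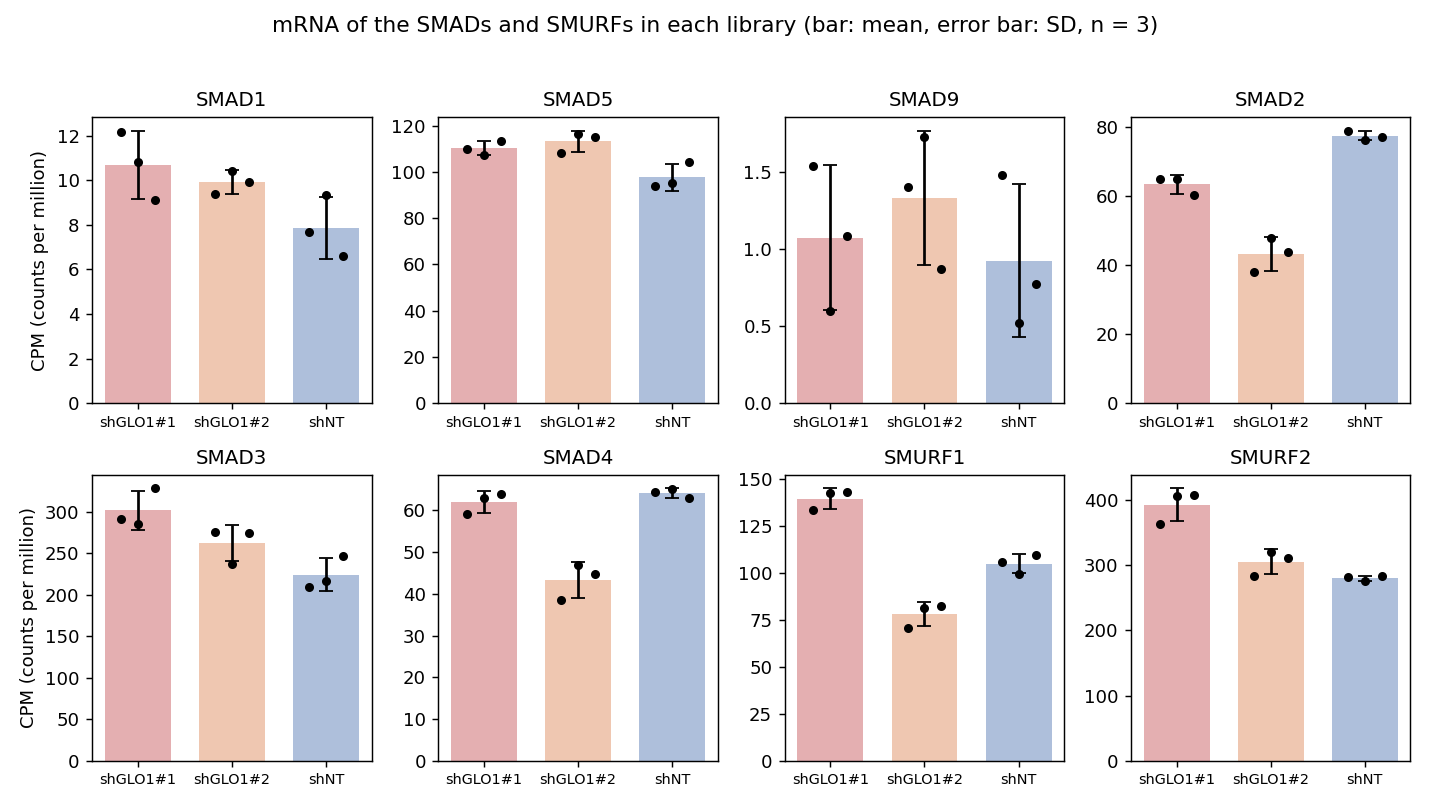
mRNA level in CPM (y axis, one scale per gene) of the 8 genes in shGLO1#1, shGLO1#2 and shNT. Points are the 3 libraries, bars the mean and error bars the SD. SMAD2 and SMAD4 are lowest in shGLO1#2, with means of 43.2 and 43.3 CPM, and SMURF1 is highest in shGLO1#1 at 140 CPM and lowest in shGLO1#2 at 78.1 CPM.

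Among the BMP-type SMADs, SMAD5 was the most heavily counted and was modestly higher in both clones. It stood at 110, 107 and 114 CPM in shGLO1#1, at 108, 117 and 115 CPM in shGLO1#2, and at 93.8, 95.1 and 104 CPM in shNT. Every library of either clone lay above every shNT library, and the 2 clones overlapped. Against shNT, the log2 fold change was 0.17 ± 0.06 (SE, adjusted p = 0.0260 by edgeR) in shGLO1#1 and 0.21 ± 0.06 (adjusted p = 0.0103 by edgeR) in shGLO1#2. The call in shGLO1#1 was lost without shGLO1#1 replicate 1, shGLO1#1 replicate 3, shNT replicate 1 or shNT replicate 2, at adjusted p = 0.0620, 0.0887, 0.0978 and 0.0921 in that order by edgeR. SMAD5-AS1, annotated antisense to SMAD5, had 0 counts in all 9 libraries. It shares 610 exon bases with SMAD5 in a GRCh38 annotation, and the libraries do not mark strand. The 0 counts therefore do not show that antisense RNA was absent.

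The study measured both SMAD1 and SMAD5 protein in these cells, and followed SMAD1 further by staining and silencing. By qRT-PCR, the study reported that neither SMAD1 nor SMAD5 mRNA changed significantly in GLO1-depleted MDA-MB-231 cells. In the libraries here, SMAD1 had far fewer counts than SMAD5. It stood at 12.2, 10.8 and 9.12 CPM in shGLO1#1, at 9.37, 10.4 and 9.92 CPM in shGLO1#2, and at 7.66, 9.32 and 6.58 CPM in shNT, from 114 to 199 counts a library. The shGLO1#1 libraries overlapped shNT, whereas those of shGLO1#2 all lay above it, by as little as 9.37 against 9.32 CPM. In shGLO1#1 the change was 0.45 ± 0.15 on the log2 scale (SE, adjusted p = 0.0225 by edgeR), and in shGLO1#2 it was 0.34 ± 0.15 (adjusted p = 0.0851 by edgeR). Libraries of shGLO1#2 and shNT with the same replicate number deviated together, which was taken as pairing from the data. A block for the number was fitted over all 9 libraries, although the numbers did not pair shGLO1#1 with shNT. With this block the change in shGLO1#2 was 0.34 with adjusted p = 0.0341 by edgeR, which passed the test. It also passed without shNT replicate 2, at 0.48 with adjusted p = 0.0296 by edgeR. The call in shGLO1#1 was lost without shGLO1#1 replicate 1, shGLO1#1 replicate 2, shNT replicate 1 or shNT replicate 3, at adjusted p = 0.105, 0.0628, 0.0579 and 0.0960 in that order by edgeR. The antisense genes SMAD1-AS1 and SMAD1-AS2 had 0 counts in all 9 libraries. SMAD1-AS1 shares 376 exon bases with SMAD1, so the limit given for SMAD5-AS1 holds for it too, while SMAD1-AS2 shares 0.

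SMAD9, the third BMP-type SMAD, was close to the limit of detection. Its counts were 25, 11 and 19 in shGLO1#1, 23, 31 and 14 in shGLO1#2, and 22, 8 and 14 in shNT. All groups overlapped and the change did not pass the test in either clone. The 95% interval of the log2 fold change ran between -0.71 and 1.13 in shGLO1#1 and between -0.33 and 1.44 in shGLO1#2, so that at this depth even a log2 change of 1 in either clone lay within the interval.

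SMAD2 and SMAD3, the TGF-β-type pair, moved in opposite directions. SMAD2 stood at 65.1, 64.9 and 60.4 CPM in shGLO1#1, at 38.0, 47.8 and 43.8 CPM in shGLO1#2, and at 79.0, 76.4 and 77.2 CPM in shNT. The 3 groups did not overlap, with shNT highest and shGLO1#2 lowest. SMAD2 changed on the log2 scale by -0.29 ± 0.07 (SE, adjusted p = 0.00590 by edgeR) in shGLO1#1 and -0.84 ± 0.08 (adjusted p = 1.82e-06 by edgeR), or 1.79-fold lower, in shGLO1#2.

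SMAD3 stood at 291, 285 and 328 CPM in shGLO1#1, at 276, 238 and 275 CPM in shGLO1#2, and at 210, 217 and 247 CPM in shNT. All shGLO1#1 libraries lay above shNT, and those of shGLO1#2 overlapped it through shGLO1#2 replicate 2 and shNT replicate 3. The log2 fold change was 0.43 ± 0.08 (SE, adjusted p = 5.54e-04 by edgeR) in shGLO1#1 and 0.23 ± 0.08 (adjusted p = 0.0341 by edgeR) in shGLO1#2. The call in shGLO1#2 was lost without shGLO1#2 replicate 1, shGLO1#2 replicate 3, shNT replicate 1 or shNT replicate 2, at adjusted p = 0.0878, 0.0953, 0.130 and 0.109 in that order by edgeR.

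The ratio of SMAD2 to SMAD3 counts within a library needs no scaling between libraries. It was 0.223, 0.227 and 0.184 in shGLO1#1, 0.138, 0.201 and 0.159 in shGLO1#2, and 0.376, 0.353 and 0.313 in shNT. All 6 libraries of the clones lay below all 3 shNT libraries. The difference of mean log2 ratios was -0.72 in shGLO1#1 and -1.08 in shGLO1#2, each with p = 0.1 in a two-sided exact permutation test, the smallest p that 3 libraries against 3 allow. These ratios compare counts, which depend on transcript length, and are not ratios of molecules. BMP-type (SMAD1, SMAD5 and SMAD9) over TGF-β-type (SMAD2 and SMAD3) counts averaged 0.335 in shGLO1#1, 0.408 in shGLO1#2 and 0.353 in shNT, with p = 0.2 in shGLO1#1 and p = 0.1 in shGLO1#2 by the same exact test. With 4 ratios in 3 comparisons, none can pass a threshold of 0.05, adjusted or not.

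SMAD4, the partner shared by both branches, was lower in shGLO1#2 and was not called in shGLO1#1. The study reported a decrease of SMAD4 protein in GLO1-depleted MDA-MB-231 cells, a measure other than the mRNA given here. It stood at 59.1, 62.9 and 64.0 CPM in shGLO1#1, at 38.5, 46.8 and 44.7 CPM in shGLO1#2, and at 64.4, 65.1 and 62.9 CPM in shNT. The shGLO1#1 and shNT libraries overlapped, and every shGLO1#2 library lay below them all. The log2 fold change was -0.05 ± 0.07 (SE, adjusted p = 0.606 by edgeR) in shGLO1#1, with a 95% interval between -0.20 and 0.11. In shGLO1#2 it was -0.56 ± 0.07 (adjusted p = 3.93e-05 by edgeR), or 1.48-fold lower.

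SMURF1, the ligase first described to act on SMAD1 and SMAD5, stood at 134, 143 and 143 CPM in shGLO1#1, at 70.6, 81.4 and 82.3 CPM in shGLO1#2, and at 106, 99.8 and 109 CPM in shNT. The 3 groups did not overlap, with shNT between the 2 clones. The log2 fold change was 0.41 ± 0.07 (SE, adjusted p = 1.84e-04 by edgeR) in shGLO1#1 and -0.43 ± 0.07 (adjusted p = 1.87e-04 by edgeR) in shGLO1#2.

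SMURF2, its paralog, stood at 363, 406 and 407 CPM in shGLO1#1, at 284, 321 and 311 CPM in shGLO1#2, and at 281, 275 and 283 CPM in shNT. All shGLO1#1 libraries lay well above shNT, while the lowest shGLO1#2 library exceeded the highest shNT library by only 284 against 283 CPM. For SMURF2 the fitted log2 fold change was 0.49 ± 0.06 (SE, adjusted p = 2.09e-05 by edgeR) in shGLO1#1 and 0.13 ± 0.06 (adjusted p = 0.119 by edgeR) in shGLO1#2. With the replicate number as a block, the change in shGLO1#2 was 0.12 with adjusted p = 0.0428 by edgeR, which passed the test. It also passed without shGLO1#2 replicate 1, at 0.18 with adjusted p = 0.0284 by edgeR. SMURF1 over SMURF2 counts came to 0.368, 0.351 and 0.351 in shGLO1#1, 0.249, 0.254 and 0.265 in shGLO1#2, and 0.377, 0.363 and 0.387 in shNT. The ratio overlapped between shGLO1#1 and shNT (p = 0.2, two-sided exact permutation test) and was lower in all shGLO1#2 libraries (log2 difference -0.55, p = 0.1 in the same test, its smallest possible value).

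**Figure D2:**
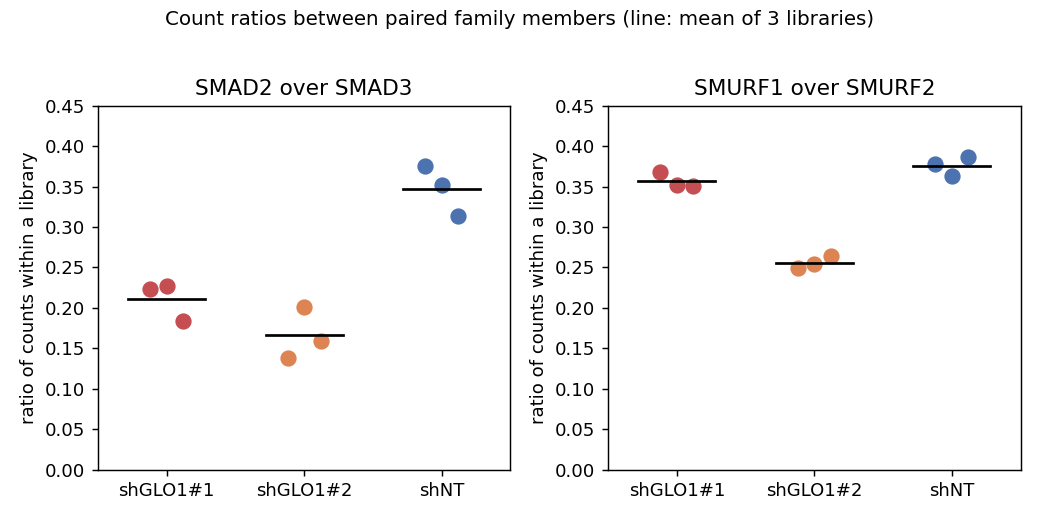
Ratio of SMAD2 to SMAD3 counts (left) and of SMURF1 to SMURF2 counts (right) within each library (points, y axis from 0) of shGLO1#1, shGLO1#2 and shNT, with a line at the mean. SMAD2 over SMAD3 averages 0.211 in shGLO1#1, 0.166 in shGLO1#2 and 0.347 in shNT, and SMURF1 over SMURF2 averages 0.357 in shGLO1#1, 0.256 in shGLO1#2 and 0.376 in shNT.

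The 2 clones differed from each other in 5 of the 8 genes, each lower in shGLO1#2 than in shGLO1#1, and 0 were higher, where 46.5% of all genes were called in this comparison, 22.8% higher and 23.7% lower. The libraries of the 2 clones did not overlap for the same 5 genes, as for 55.4% of all genes, and none passed the change of 1, which 7.09% of all genes did (3.33% higher and 3.75% lower). On the log2 scale SMURF1 differed by -0.84 ± 0.07 (SE, adjusted p = 4.01e-07 by edgeR), or 1.79-fold lower in shGLO1#2 than in shGLO1#1. SMAD2 differed by -0.55 (adjusted p = 5.47e-05 by edgeR), SMAD4 by -0.52 (adjusted p = 6.73e-05 by edgeR) and SMURF2 by -0.36 (adjusted p = 2.43e-04 by edgeR). For SMAD3 the difference was -0.20 (adjusted p = 0.0491 by edgeR), a call that RLE size factors (adjusted p = 0.0627 by edgeR) or the DESeq2 test (adjusted p = 0.0605) ended. It also ended without shGLO1#1 replicate 1, shGLO1#1 replicate 3, shGLO1#2 replicate 2, shGLO1#2 replicate 3 or shNT replicate 2, at adjusted p = 0.0648, 0.206, 0.219, 0.0509 and 0.0606 in that order by edgeR. The 3 BMP-type SMADs did not pass, and the 95% interval of the clone difference was -0.41 to 0.20 for SMAD1 and -0.08 to 0.16 for SMAD5.

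**Figure D3:**
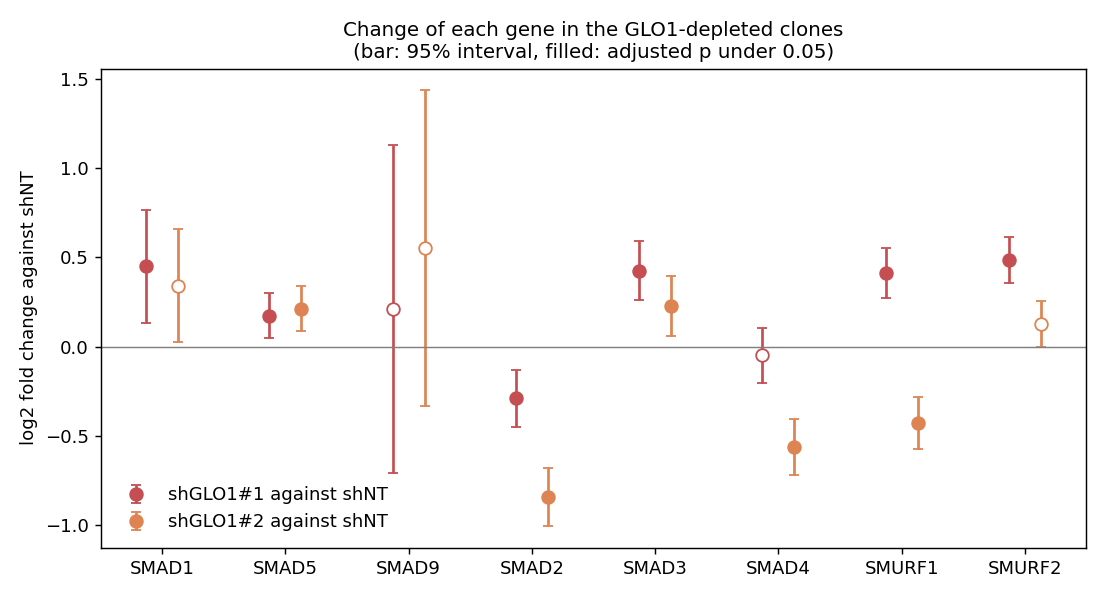
log2 fold change against shNT (y axis) of the 8 genes in shGLO1#1 and shGLO1#2, with 95% intervals as bars and filled symbols for genes that passed the test. SMURF1 lies at 0.41 in shGLO1#1 and at -0.43 in shGLO1#2, and SMAD2 lies below 0 in both clones. The shared shNT libraries enter both values of a gene.

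SMAD2 and SMAD4 lie on chromosome 18, with 15 tested genes between them in RefSeq order, and SMURF1 lies on chromosome 7. Because the 3 genes that fell in shGLO1#2 included both members on chromosome 18, the 20 tested genes on each side of every member were examined, a step chosen after the values were seen. In shGLO1#2 against shNT, 33 of the 40 neighbours of SMAD2 were lower and 0 higher, with a median log2 fold change of -0.70, beside -0.84 for SMAD2 itself. Of the 40 neighbours of SMAD4, 32 were lower and 1 higher, with a median of -0.83, beside -0.56 for SMAD4. These 2 sets share 23 genes, among them SMAD7. SMAD2 and SMAD4 are also neighbours of each other, so each enters the median of the other. Of the 40 neighbours of SMURF1, 28 were lower and 3 higher, with a median of -0.43, equal to the -0.43 of SMURF1. Over all genes tested, 19.8% were lower in this comparison.

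The neighbours of the other members moved less in shGLO1#2. Their median log2 fold changes were -0.12 around SMAD1 (chromosome 4), 0.02 around SMAD5 (chromosome 5), 0.08 around SMAD9 (chromosome 13), 0.01 around SMAD3 (chromosome 15) and -0.02 around SMURF2 (chromosome 17). Around SMAD1, 14 of 40 were lower and 7 higher. Of these 5 members, SMAD5 and SMAD3 were called higher in that clone and none lower.

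Across chromosome 18 as a whole, 146 of 196 tested genes (74.5%) were lower in shGLO1#2 and 7 higher, with a median log2 fold change of -0.56. This equals the change of SMAD4. The median of the 196 genes relative to the shNT mean was -0.69, -0.48 and -0.56 in the 3 shGLO1#2 libraries and between -0.03 and 0.03 in the shNT libraries. The fall was present before SMAD2 in gene order (120 genes, median -0.47), between SMAD2 and SMAD4 (15 genes, median -0.89) and after SMAD4 (59 genes, median -0.80). On chromosome 7 the median of 642 genes was -0.23, and chromosomes 6 and 10 had medians of -0.23 and -0.24. DNA copy number was not measured in these data, and its part in these values was not tested.

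In shGLO1#1 the same neighbourhoods moved less than in shGLO1#2. Over all genes tested, 23.1% were lower and 22.6% higher in shGLO1#1 against shNT. The median log2 fold change of the neighbours was -0.19 around SMAD2, where 14 of 40 (35%) were lower and 7 (17.5%) higher. Around SMAD4 it was -0.26, where 21 of 40 (52.5%) were lower and 7 (17.5%) higher. Around SMURF1 it was 0.08, with 10 lower and 9 higher. SMURF1 at 0.41 therefore stood above its neighbours in shGLO1#1, whereas in shGLO1#2 it lay at their median. Chromosome 18 had a median of -0.16 in shGLO1#1, where 74 of its 196 tested genes (37.8%) were lower and 26 (13.3%) higher.

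Set against the neighbours within each library, some of the changes shrank and some remained. SMAD2 minus the median of its 40 neighbours, on the log2 CPM scale with shNT means at 0, averaged -0.14 ± 0.08 in shGLO1#1, -0.19 ± 0.02 in shGLO1#2 and 0.01 ± 0.03 in shNT (SD, n = 3 each). SMAD4 minus its neighbours averaged 0.20 ± 0.05 in shGLO1#1, 0.18 ± 0.03 in shGLO1#2 and 0.01 ± 0.06 in shNT. For both genes every library of either clone lay outside the shNT range, SMAD2 below it and SMAD4 above it (p = 0.1 in each of the 4 two-sided exact permutation tests, n = 3 each, the smallest possible). The difference between the clones in these adjusted values was -0.04 for SMAD2 and -0.03 for SMAD4, with overlapping libraries (p = 0.5 and 0.6, exact permutation test). SMURF1 minus its neighbours averaged 0.40 ± 0.06 in shGLO1#1, -0.02 ± 0.09 in shGLO1#2 and -0.00 ± 0.06 in shNT, and the shGLO1#2 and shNT libraries overlapped. For SMAD1, SMAD5, SMAD3 and SMURF2 the same subtraction left mean differences of 0.50, 0.14, 0.44 and 0.44 in shGLO1#1 from shNT, without overlap. In shGLO1#2 the mean differences from shNT were 0.47 for SMAD1 and 0.17 for SMAD5, without overlap, and 0.18 for SMAD3 and 0.13 for SMURF2, with overlapping libraries (p = 0.2 for each of the last pair, two-sided exact permutation test, n = 3 each).

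**Figure D4:**
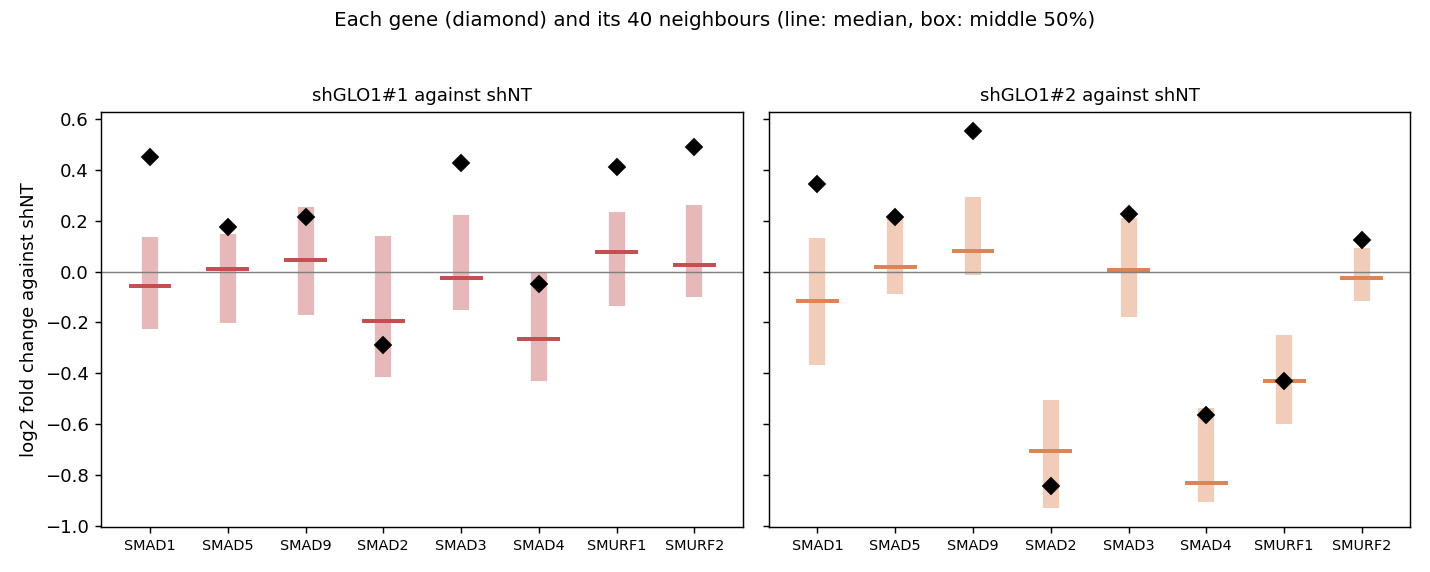
log2 fold change against shNT (y axis) of each of the 8 genes (diamond) and of its 40 neighbouring tested genes (line at the median, box over the middle 50%) in shGLO1#1 (left) and shGLO1#2 (right). In shGLO1#2 the boxes of SMAD2, SMAD4 and SMURF1 lie below 0, with medians of -0.70, -0.83 and -0.43, and those of the other 5 genes lie around 0.

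**Figure D5:**
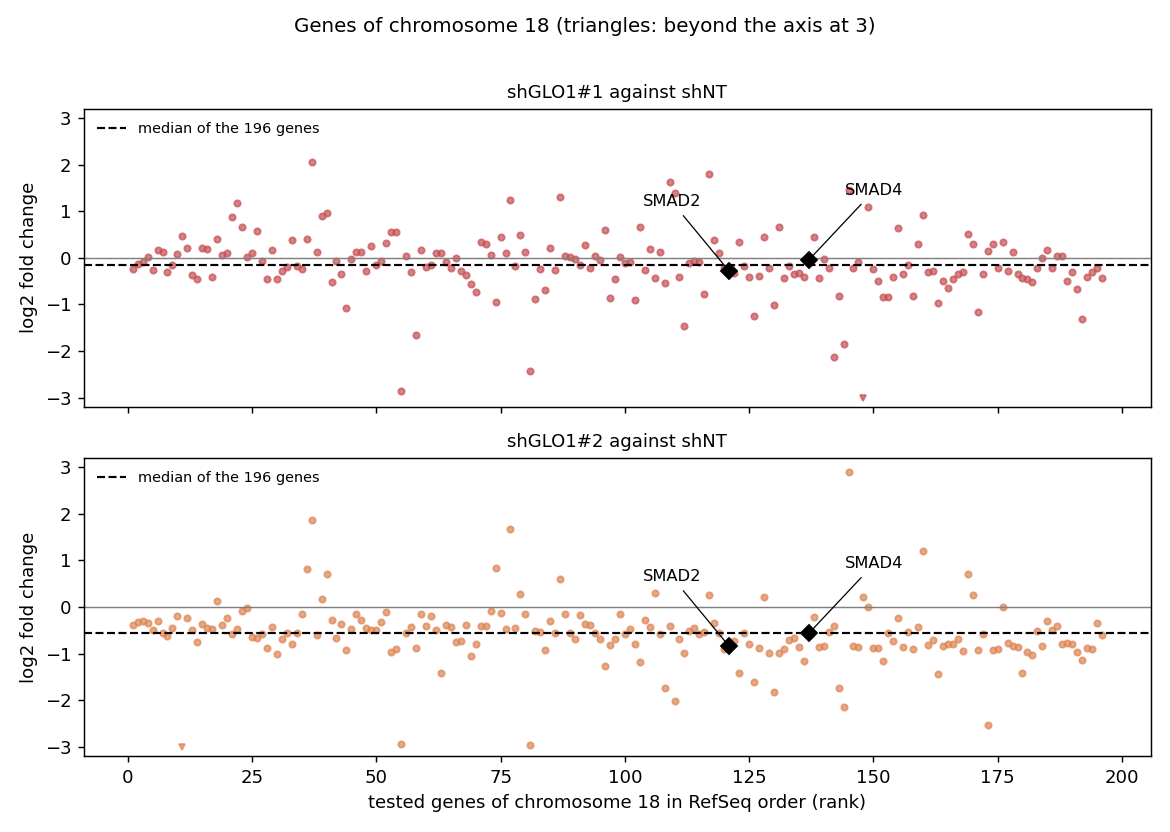
log2 fold change against shNT (y axis) of 196 tested genes of chromosome 18 in RefSeq gene order (x axis, rank) in shGLO1#1 (top) and shGLO1#2 (bottom), with a dashed line at the median and SMAD2 and SMAD4 as diamonds. In shGLO1#2 the median is -0.56 and 178 of the 196 genes lie below 0, while in shGLO1#1 the median is -0.16.

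The promoters of SMAD2, SMAD4 and SMURF1 are shown because these are the members that fell in shGLO1#2, and they allow a look for letters bound by SMADs themselves. Each run is the 250 bases before a RefSeq start site on the strand of the gene, 5′ to 3′, in GRCh38.p14. Capitals mark GGCGCC, a GC-rich element bound by SMAD1 and SMAD5.
SMAD2 (chr18:47930873-47931122, minus strand): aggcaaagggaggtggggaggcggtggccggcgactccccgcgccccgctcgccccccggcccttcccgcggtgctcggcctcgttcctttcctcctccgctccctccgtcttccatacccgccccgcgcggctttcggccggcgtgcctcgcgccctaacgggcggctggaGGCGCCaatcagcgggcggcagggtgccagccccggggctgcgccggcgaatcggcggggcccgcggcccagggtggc
SMAD4 (chr18:51029963-51030212, plus strand): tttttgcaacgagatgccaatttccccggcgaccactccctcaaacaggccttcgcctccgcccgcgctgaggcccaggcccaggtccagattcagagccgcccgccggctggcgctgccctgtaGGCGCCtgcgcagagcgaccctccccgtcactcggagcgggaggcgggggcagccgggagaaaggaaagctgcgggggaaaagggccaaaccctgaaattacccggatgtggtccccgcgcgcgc
SMURF1 (chr7:99144109-99144358, minus strand): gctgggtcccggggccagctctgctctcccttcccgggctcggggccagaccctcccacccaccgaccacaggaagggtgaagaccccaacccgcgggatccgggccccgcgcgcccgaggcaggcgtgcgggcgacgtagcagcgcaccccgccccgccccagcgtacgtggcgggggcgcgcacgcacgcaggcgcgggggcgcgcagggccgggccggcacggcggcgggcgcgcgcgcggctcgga
All 8 genes matched the RefSeq table, with 5 start sites each for SMAD1 and SMAD3, 2 for SMAD2 and 1 for each of the others. GGCGCC occurred 1 time in this SMAD2 window, 1 time in that of SMAD4 and 0 times in that of SMURF1, and 16.4% of 35116 RefSeq windows of the same length hold it. The SMAD-binding core CAGAC, searched on both strands, occurred in the SMURF1 window only, 1 time, and is held by 38% of windows. The palindrome GTCTAGAC was in none of the 3 and in 0.182% of all windows. The GC box GGGCGG, searched on both strands, occurred 3, 2 and 2 times in the windows of SMAD2, SMAD4 and SMURF1, and 42.6% of windows hold it. In these 3 windows no match overlapped a match of a different motif, while the 2 GGGCGG matches of SMURF1 share 1 base. GC content was 78.4%, 68.4% and 81.2% in the windows of SMAD2, SMAD4 and SMURF1, against a median of 58% over all windows. The SMAD2 window not printed here also held GGCGCC 1 time. Among the members that did not fall in shGLO1#2, it occurred 0 to 2 times in each SMAD1 and each SMAD3 window. The windows of SMAD5, SMAD9 and SMURF2 held it 0 times. A match is a string of letters in a window and not a measured site.

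Other genes of the pathway were described from lists that share some genes, so their counts are not independent. SMAD7 was in the list of inhibitors and in both lists of target genes. SMAD6, SKIL, PMEPA1 and BAMBI also recurred between lists. The calls of every list below are to be read beside those over all genes tested. Against shNT, the share of all genes called higher was 22.6% for shGLO1#1 and 18.3% for shGLO1#2. The share called lower was 23.1% for the first clone and 19.8% for the second. Whether a list departed from these shares was not tested. Inhibitory SMADs and nuclear co-repressors numbered 13, with 4 called higher and 4 called lower in shGLO1#1. In shGLO1#2 the calls were 3 higher and 6 lower. SMAD6, which inhibits BMP signaling, was lower in both clones with log2 fold changes of -1.07 (adjusted p = 0.0145 by edgeR) and -1.17 (adjusted p = 0.0116 by edgeR), from 10 to 24 counts in shGLO1#1, 12 to 19 in shGLO1#2 and 24 to 41 in shNT. SMAD7, the inhibitor that brings SMURFs to receptors, lies between SMAD2 and SMAD4 and was named after its values were seen. It stood at 6.23, 9.57 and 11.7 CPM in shGLO1#1, at 2.07, 2.57 and 3.54 CPM in shGLO1#2, and at 6.98, 6.06 and 8.63 CPM in shNT. All shGLO1#2 libraries lay below the others, and the log2 fold change was -1.41 there (adjusted p = 6.16e-04 by edgeR) and 0.34 in shGLO1#1 (adjusted p = 0.220 by edgeR). TGIF1, a co-repressor also on chromosome 18 and named after its values were seen, stood at -0.37 in shGLO1#2 (adjusted p = 0.00534 by edgeR) and 0.21 in shGLO1#1 (adjusted p = 0.0648 by edgeR).

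Among 13 receptor genes tested, shGLO1#1 had 6 higher and 3 lower, while shGLO1#2 had 4 higher and 2 lower. TGFBR2, the type II receptor for TGF-β, was higher in both clones, with log2 fold changes of 0.37 and 0.74 (adjusted p = 2.67e-04 and 1.00e-06 by edgeR) in shGLO1#1 and shGLO1#2. TGFBR3, a co-receptor, was lower in both, at -1.09 and -0.66 (adjusted p = 5.79e-06 and 4.35e-04 by edgeR). ACVRL1, a type I receptor best known in endothelium, had 42, 21 and 18 counts in shGLO1#2, against 0, 2 and 1 in shGLO1#1 and 1, 0 and 0 in shNT (adjusted p = 5.44e-05 by edgeR for shGLO1#2 against shNT).

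Among 15 other ligases and deubiquitinases of the pathway, shGLO1#1 had 1 higher and 7 lower, while shGLO1#2 had 3 higher and 5 lower. The deubiquitinase CYLD changed by -0.89 and -0.78 in shGLO1#1 and shGLO1#2 (adjusted p = 7.26e-07 and 3.06e-06 by edgeR), and UCHL5, which can remove ubiquitin from TGF-β receptors, by -0.48 and -0.30 (adjusted p = 2.13e-05 and 0.00116 by edgeR). WWP2, a HECT ligase related to the SMURFs, was lower in shGLO1#1 at -0.69 (adjusted p = 4.48e-06 by edgeR) and stood at -0.02 in shGLO1#2 (adjusted p = 0.864 by edgeR). NEDD4L, a HECT ligase on chromosome 18 that was named after its values were seen, was lower in both clones, at -0.85 in shGLO1#1 (adjusted p = 1.24e-04 by edgeR) and -0.55 in shGLO1#2 (adjusted p = 0.00360 by edgeR).

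Among 17 phosphatases, anchors and transport factors, shGLO1#1 had 6 higher and 3 lower, while shGLO1#2 had 2 higher and 3 lower. PMEPA1, a TGF-β-induced membrane protein that sequesters SMAD2 and SMAD3, stood at 97.1, 134 and 98.2 CPM in shGLO1#1, at 11.3, 18.8 and 12.8 CPM in shGLO1#2, and at 18.7, 23.2 and 19.6 CPM in shNT. Only the shGLO1#1 libraries lay above all shNT libraries, and its log2 fold change was 2.42 (adjusted p = 1.13e-07 by edgeR) in shGLO1#1 and -0.51 (adjusted p = 0.0385 by edgeR) in shGLO1#2. The phosphatase CTDSPL was lower in shGLO1#1 at -0.39 (adjusted p = 4.58e-05 by edgeR), and the adaptor DAB2 was lower in shGLO1#2 at -0.62 (adjusted p = 8.30e-05 by edgeR). Among 13 kinases that act on or above the SMAD linker, shGLO1#1 had 0 higher and 6 lower, while shGLO1#2 had 1 higher and 4 lower. MAPK14, the p38α kinase, was lower in shGLO1#2 at -0.46 (adjusted p = 1.04e-05 by edgeR), CDK2 was lower in shGLO1#1 at -0.37 (adjusted p = 7.58e-05 by edgeR), and MAPK8, the JNK1 kinase, was lower in both at -0.25 and -0.32 (adjusted p = 0.0128 and 0.00403 by edgeR).

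Among 13 coactivators and DNA-binding partners tested, shGLO1#1 had 5 higher and 4 lower, while shGLO1#2 had 0 higher and 1 lower. NCOA1, a nuclear receptor coactivator, was higher in shGLO1#1 at 1.08 (adjusted p = 1.16e-06 by edgeR), as were the partners RUNX2 at 0.69 (adjusted p = 1.47e-05 by edgeR) and RUNX1 at 0.36 (adjusted p = 6.49e-04 by edgeR). In shGLO1#2 their log2 fold changes were -0.11, -0.04 and 0.11 for NCOA1, RUNX2 and RUNX1, and none passed the test.

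Of 12 SMAD2 and SMAD3 target genes tested, 6 were higher and 0 lower in shGLO1#1, with a median log2 fold change of 0.40, and 3 were higher and 4 lower in shGLO1#2, with a median of 0.10. TGFBI, a TGF-β-induced matrix protein, stood at 69.8, 66.4 and 67.5 CPM in shGLO1#1, at 54.7, 54.1 and 54.5 CPM in shGLO1#2, and at 22.4, 24.7 and 28.9 CPM in shNT. It was higher in both clones without overlap, by 1.42 and 1.10 (adjusted p = 3.46e-08 and 3.80e-07 by edgeR). Among 10 SMAD1 and SMAD5 target genes tested, shGLO1#1 had 1 higher and 3 lower, while shGLO1#2 had 3 higher and 4 lower. The target-gene counts, like those of the other lists, are read against the shares of all genes given before the first list.

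Over the 9 libraries, the log2 CPM profiles of SMAD2 and SMAD4 were the most alike among the 28 pairs of members, with Pearson r = 0.95, followed by SMAD4 and SMURF1 at 0.83 and by SMAD3 and SMURF2 at 0.78. SMAD5 and SMAD2 ran most against each other, at r = -0.69, which within clones was 0.32. These values describe 9 libraries of 3 clones that share their depth and scaling. Within clones the r was 0.74 for SMAD2 and SMAD4, 0.78 for SMAD4 and SMURF1, and -0.10 for SMAD3 and SMURF2. Among 10754 genes with at least 5 CPM, those most like SMAD2 were PTPN21, SOCS2 and ME2 (r = 0.997, 0.990 and 0.989). ME2 also lies on chromosome 18 between SMAD2 and SMAD4, and PTPN21 and SOCS2 lie on chromosomes 14 and 12. Those most like SMURF1 were ESYT2, EFEMP1 and CEMIP (r = 0.99 each). ESYT2 lies on chromosome 7, as does SMURF1, and EFEMP1 and CEMIP lie on chromosomes 2 and 15. EFEMP1 averaged 91.9 CPM in shGLO1#1, 18.4 CPM in shGLO1#2 and 38.6 CPM in shNT, the order of SMURF1 with a wider range. Those most like SMAD4 were METTL2B, MEA1 and IARS2 (r = 0.99 each), on chromosomes 7, 6 and 1. SMAD3 was most like ZNF776, FAT1 and ZNF33A (r = 0.98, 0.98 and 0.97), SMURF2 like TSR2, STEAP3 and POLE4 (r = 0.99, 0.98 and 0.98), SMAD5 like MTX3, PDS5B and USP7 (r = 0.99, 0.97 and 0.97), and SMAD1 like CRTC3, ASUN and DSE (r = 0.96, 0.95 and 0.94).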

How the data were processed

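Total RNA of MDA-MB-231 cells was sequenced as 9 libraries, 3 each of shGLO1#1, shGLO1#2 and shNT, prepared with an Illumina TruSeq RNA kit that does not mark strand. The authors deposited whole-number counts per gene for each library, made with HTSeq from TopHat2 2.1.1 alignments to hg19 after bcl2fastq 2.17, per the labels and their processing notes. For HTSeq, the version, strand setting and annotation were not given in the sources used here. Reads of a gene and of an antisense partner cannot be told apart without strand. Reads outside genes (12.8% to 15.2% of the listed total), ambiguous reads (1.50% to 1.95%) and reads with several alignments (5.76% to 6.15%) were left out of library sizes and tests.

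Counts were fitted with edgeR 4.0.16 in R 4.3.3 (filterByExpr with a minimum count of 10, TMM factors of 0.972 to 1.04, quasi-likelihood F test, 9 libraries sharing one spread), with Benjamini-Hochberg adjustment over 13704 genes and DESeq2 1.42.0 as an alternative. CPM used the TMM-scaled library size. Log2 CPM used a prior count of 2. Ratios and values relative to neighbours were compared by two-sided exact permutation tests. Neighbours were ordered by RefSeq gene positions (GRCh38.p14), used for order only, for 13462 genes (98.2%). Promoter sequences came from RefSeq, in a build other than that of the counts.

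The 8 members and the lists were chosen with earlier results of these data known. Named genes outside the members were, in each list, those past the test and a log2 change of 1 in the same direction in both clones (at most 4), or else the 3 with the smallest adjusted p in either clone, and the 3 genes most correlated with a member that passed the test. Libraries with the same replicate number deviated from their group means together in shGLO1#2 and shNT (r = 0.21, 0.19 and 0.31 over genes for numbers 1, 2 and 3), which was taken as pairing from the data, since the labels do not say what the number marks. No 2 libraries agreed within sampling noise (chi-square per degree of freedom 2.98 or more within groups). The alternatives were other size factors, DESeq2, other filters, the 2 groups alone, the replicate block and leaving out each library. The edgeR code was tested on simulated data.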

Additional observations from a re-analysis of the deposited data

Results flagged for a closer look

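The direct edgeR test of shGLO1#2 against shGLO1#1 found a difference between the 2 clones for 5 of the 8 genes, each lower in shGLO1#2, in a comparison where 46.5% of all genes were called and 23.7% were lower. The log2 differences were -0.84 for SMURF1, -0.55 for SMAD2, -0.52 for SMAD4, -0.36 for SMURF2 and -0.20 for SMAD3, with adjusted p = 4.01e-07, 5.47e-05, 6.73e-05, 2.43e-04 and 0.0491 by edgeR in that order. All 3 shGLO1#2 libraries lay below all 3 shGLO1#1 libraries for each of them, as libraries did without overlap in either direction for 55.4% of all genes. SMURF1 was the only member called in opposite directions against shNT, at 0.41 in shGLO1#1 and -0.43 in shGLO1#2.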

How the results depend on the processing

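The counts of members called held within 1.5 times under every alternative run, at 4 to 6 in shGLO1#1, 4 to 7 in shGLO1#2 and 4 to 5 between the clones. SMAD2 kept its call in each run in all 3 comparisons. So did SMAD3, SMURF1 and SMURF2 in shGLO1#1, and SMAD5, SMAD4 and SMURF1 in shGLO1#2. Between the clones, SMAD4, SMURF1 and SMURF2 kept theirs. Calls over all genes ranged over 5185 to 7393 in shGLO1#1, 4438 to 6397 in shGLO1#2 and 5225 to 7522 between the clones. The calls that changed were those of SMAD1 in both clones, SMAD5 in shGLO1#1, SMURF2 in shGLO1#2, and SMAD3 in shGLO1#2 and between the clones, as given with each gene. SMAD9, never called, turned to -0.13 without shGLO1#1 replicate 1 and to -0.06 without shNT replicate 2 in shGLO1#1 against shNT (range without a library -0.13 to 0.68), and the log2 difference of the SMAD1 to SMAD5 ratio turned to -0.034 without shNT replicate 3 in shGLO1#2 against shNT (range -0.034 to 0.28). The cause was not tested. The SMAD3 difference between the clones was -0.19 and no longer past the threshold (adjusted p = 0.0508 by edgeR) when only these 2 groups were fitted.

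With the replicate number as a block, 7393, 6397 and 7522 genes were called in shGLO1#1 against shNT, shGLO1#2 against shNT and shGLO1#2 against shGLO1#1, and apart from SMAD1 and SMURF2 in shGLO1#2 no call of a member changed. The numbers did not pair shGLO1#1 with shNT (r = -0.03, 0.06 and 0.25), where another number gave a higher r for numbers 1 and 2 (0.12 and 0.13). Between the 2 clones the same number gave r = 0.20, 0.07 and 0.34. Each was above the highest r with another number (0.075, -0.005 and -0.15), as it also was for shGLO1#2 and shNT. The neighbour medians in shGLO1#2 ranged over -0.74 to -0.62 (SMAD2), -0.84 to -0.75 (SMAD4) and -0.47 to -0.38 (SMURF1) when a library was left out, and with 10 or 30 genes each side, both chosen after seeing the data, they were -0.71 and -0.69, -0.85 and -0.79, and -0.43 and -0.44. In shGLO1#1 the SMURF1 neighbours had medians of -0.04 and 0.08 with these windows and -0.01 to 0.08 without a library. At 8 to 31 counts, depth limits SMAD9 most.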
